A study of Mus musculus with 13 samples.

Results

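Neutrophils are short-lived phagocytes that are made in the bone marrow, circulate in the blood and enter tissue along gradients of chemokines. They carry prefabricated granules whose messenger RNAs are largely switched off before release from the marrow, and they make S100A8 and S100A9, the subunits of calprotectin, in large amounts. In inflamed tissue they are known for the production of interleukin-1β and of chemokines such as CXCL2, which draws in further neutrophils through the receptor CXCR2. The lung holds a pool of neutrophils in its capillaries even without inflammation.

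Neutrophils of mouse lung single-cell libraries were chosen by a rule on their own counts. A barcode was selected when mitochondrial genes held at most 10% of its unique molecular identifiers (UMIs, each standing for 1 captured RNA molecule), when S100a8 and S100a9 together held at least 1%, when at least 2 of the 6 genes Csf3r, Cxcr2, Retnlg, Mmp9, Il1r2 and Mmp8 were detected, and when neither Cd79a nor Cd3e was. The rule took 1522 of the 20856 barcodes under the mitochondrial limit in the libraries numbered 1, 2, 3 and 7, out of 37344 barcodes in all 7 libraries. The levels of those genes in the selected cells are therefore a description of the selection and are not findings.

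By their titles, 4 of the 13 samples were an ovalbumin asthma model (Asthma), a Control, PPE-emphysema (repeated instillation of porcine pancreatic elastase, PPE) and PPE-recovery (a single instillation and later collection), each from 1 C57BL/6 mouse and dissociated with proteases. The other 9 were 3 samples each of acute injury, Con and emphysema, which were not analysed here on their own. Barcodes carried a library number from 1 to 7, and no label ties a number to a title. The matrix was thus 1 sample without groups, values are given for each library, no condition was compared, and there was no replicate against which a difference could be tested.

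The 4 libraries are called lung libraries because their other cells held lung transcripts. Scgb1a1, the secretory protein of airway club cells, stood between 5714 and 20613 UMIs per 1000000 UMIs (CPM) in their other cells, and the surfactant gene Sftpc between 2735 and 9407 CPM. Libraries 4, 5 and 6 are used only as a contrast. Hemoglobin genes held 40.3%, 41.2% and 36.1% of the UMIs of their non-neutrophil barcodes, against at most 0.0311% in the lung libraries, although every sample is labelled as lung.

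Neutrophil shares differed between the lung libraries by more than counting error, with 1 exception. They were 92 of 4800 barcodes in library 1 (1.92%, exact 95% binomial interval 1.55 to 2.35), 446 of 7626 in library 2 (5.85%, 5.33 to 6.40), 576 of 5129 in library 3 (11.2%, 10.4 to 12.1) and 408 of 3301 in library 7 (12.4%, 11.3 to 13.5). The intervals of libraries 3 and 7 overlapped and the others did not. Such intervals cover counting error only, and a share moves both with the number of neutrophils and with the number of all other cells.

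**Figure D1:**
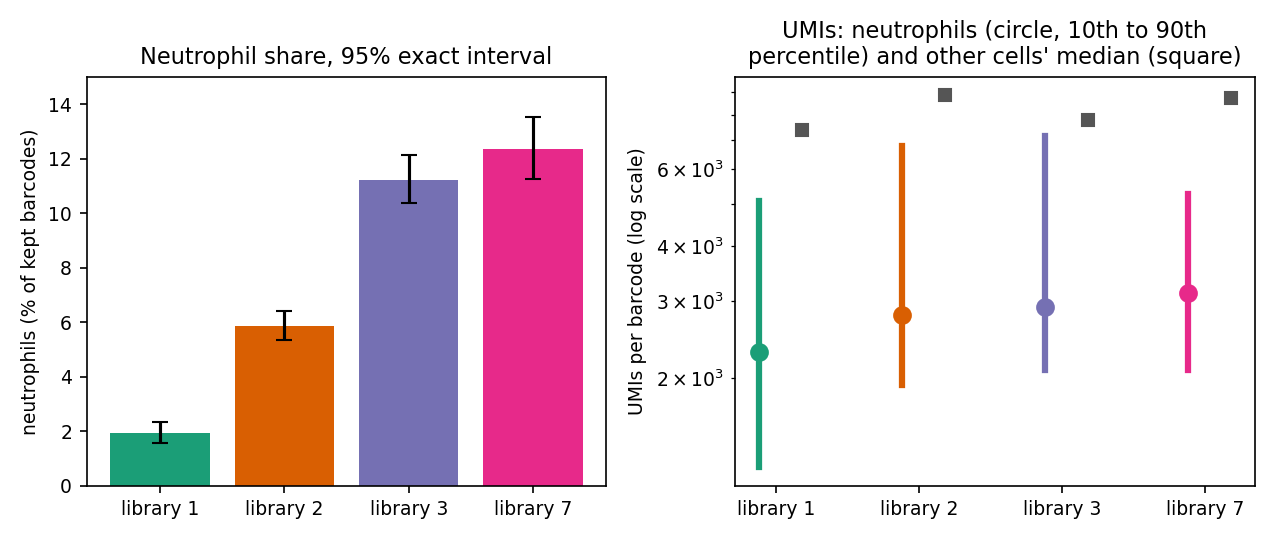
The left panel shows neutrophils as a percentage of barcodes under the mitochondrial limit in each lung library, with exact 95% binomial intervals, from 1.92% in library 1 to 12.4% in library 7. The right panel shows, on a log scale, UMIs per neutrophil (circle, median; bar, 10th to 90th percentile) and the median of the other cells (square), which was higher in each library.

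The selected cells were small in RNA content. The median neutrophil had 2291, 2791, 2909 and 3130 UMIs in libraries 1, 2, 3 and 7, against a median of 8189 in other cells, and the neutrophils spanned 382 to 33400. A median of 1073 genes was detected, against 2713 in other cells. Mitochondrial genes held a median of 0.478% of their UMIs, against 4.87% in other cells. The neutrophils of the 4 libraries together held 5749372 UMIs, of which library 1 contributed 265609, so its values carried the widest intervals.

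Cells close to the limits of the rule were few. The lowest share of S100a8 and S100a9 inside the rule was 1.02%, and the highest outside it was 0.996%. Between 1% and 2% lay 136 selected cells, and between 0.5% and 1% lay 88 cells outside. Among cells that passed the S100 limit without Cd79a or Cd3e, 590 had all 6 of the further genes and 618 had 5, whereas 38 selected cells had 2 and 38 barcodes were left out with 1 or none. A B cell or T cell gene removed 38 more barcodes.

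Not all selected barcodes held a pure neutrophil profile. Of the 1522, 161 (10.6%) had 3 or more detected markers of another cell class, and these had a median of 8937 UMIs against 2798 in the rest. They numbered 10, 57, 81 and 13 in libraries 1, 2, 3 and 7. Of 49 selected barcodes that the doublet caller Scrublet marked, 43 were among them. In library 7 only 2 of its 6 were, and in library 1 it marked 0 neutrophils. Of 64 barcode sequences found in more than 1 lung library, 1 was shared between neutrophils.

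The identity of the cells held in genes that the rule did not use. All 8 genes of a neutrophil list outside the rule (Ly6g, G0s2, Hdc, Trem1, Clec4d, Fpr1, Mxd1 and Slfn4) were at least 2-fold higher in neutrophils than in the other cells of the same library, in each of the 4 libraries. Over all 3925 genes with at least 50 CPM on either side, 573 (14.6%) met that criterion and 988 (25.2%) met the reverse, and the median gene stood at -0.48 on the log2 scale. Hdc, the enzyme that makes histamine, had 2112, 1999, 1966 and 2642 CPM in libraries 1, 2, 3 and 7, against a mean of 33.6 in other cells. Mxd1, a MAX-binding repressor, had 2278, 1633, 1761 and 2368 CPM, against 37.5. Ly6g, the surface protein by which mouse neutrophils are usually sorted, had only 79.1, 48.8, 91.6 and 101 CPM and was detected in 13.0% of the neutrophils, while its mean in other cells was 0.149 CPM. Ly6g was thus low in every library and lower still in other cells.

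Among the 25 genes with the largest median ratio to other cells were, beside the genes of the rule, the stefins Stfa1 and Stfa2l1, Gm5483, the mas-related receptor gene Mrgpra2b, the NOD-like receptor gene Nlrp12, the skin protease Asprv1, the interleukin-36 cytokine gene Il1f9, Acod1, Rdh12 and Slfn4. Stfa2l1, an inhibitor of cysteine cathepsins, had 1058, 464, 677 and 624 CPM against 1.56 in other cells. Acod1, the enzyme that makes itaconate, had 1084, 982, 1236 and 1203 CPM against 12.04. Both stood in a narrow range across the libraries, within a factor of 2.3 for Stfa2l1 and 1.3 for Acod1. The 10 genes lowest against other cells were Cd79a, Igkc, Ccl5, Iglc1, Ccr7, Igha, Ms4a1, Cyp2f2, Jchain and Ccl17, of which Cd79a was 0 by the rule.

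**Figure D2:**
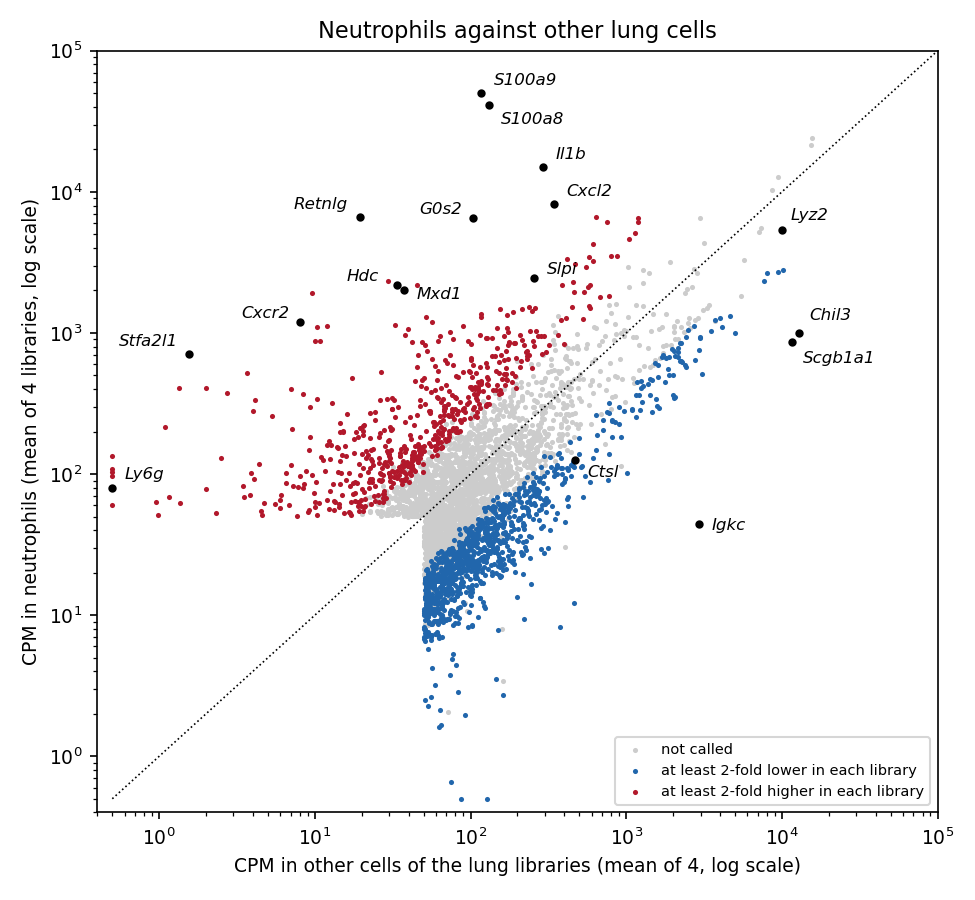
Each point is a gene with at least 50 CPM in either population, with its mean CPM over the 4 lung libraries in other cells (x axis) and in neutrophils (y axis), both on log scales, and values under 0.5 drawn at 0.5. Red genes (573) were at least 2-fold higher and blue genes (988) at least 2-fold lower in each library. The dotted line marks equal levels.

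Interleukin-1β was an abundant transcript of lung neutrophils in each library. Of 5 genes of the interleukin-1 system with enough counts, Il1r2 of the rule set aside, 4 were higher in neutrophils than in other cells. Of all genes 14.6% were. Il1b had 15485, 15385, 13893 and 14952 CPM in libraries 1, 2, 3 and 7, with counting intervals of 15016 to 15966 in the shallowest and 13741 to 14045 in library 3. The highest and lowest library differed by a factor of 1.1, and the other cells had a mean of 290 CPM. Without the 161 barcodes that held markers of other classes, Il1b had 17729, 20638, 18405 and 16247 CPM, a factor of 1.27. Nlrp3, the sensor of the inflammasome that matures interleukin-1β, had 742, 633, 880 and 719 CPM against 52.5. Il1rn, the secreted receptor antagonist, had 497, 424, 451 and 997 CPM against 76.8, with the highest level in library 7. Casp1, the protease of the inflammasome, had only 24.2 to 37.6 CPM and was under the minimum.

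Detection was also compared at equal depth. After thinning each cell to 500 UMIs, which left out 3 neutrophils, Il1b was detected in 95.6% of 1519 neutrophils (98.5% unthinned, median depth 2901), in 15.2% of 876 classical monocytes (53.8% unthinned, median 9591) and in 0.379% of 1320 B cells (6.52% unthinned, median 4213). B cells do not usually express Il1b and served as a measure of free RNA. Cxcl2 was detected in 77.1% of neutrophils (90.4% unthinned), 6.62% of monocytes and 0.152% of B cells. G0s2 was detected in 76.6% of neutrophils (90.8% unthinned), 0.342% of monocytes and 0.227% of B cells. These shares in neutrophils lay far over the background. Scgb1a1 did not, since it was detected in 39.96% of neutrophils (83.0% unthinned) and also in 27.4% of B cells and 33.7% of endothelial cells.

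Chemokine and cytokine genes were next. Of 10 genes with enough counts, 6 were higher than in other lung cells and none lower, beside 14.6% and 25.2% of all genes. Cxcl2, the ligand of CXCR2, had 8720, 7063, 6493 and 10273 CPM in libraries 1, 2, 3 and 7, against a mean of 345 in other cells. Without the 161 barcodes Cxcl2 had 9878, 9426, 8569 and 10874 CPM. Osm, an interleukin-6 family cytokine, had 1423, 711, 572 and 1079 CPM against 63.6. Cxcl3, another CXCR2 ligand, had 94.1, 164, 108 and 244 CPM against 14.02. The order of the libraries differed from gene to gene. Ccl6 stood at 2361 to 3096 CPM in neutrophils and at a mean of 2836 in other cells, and did not meet the criterion. Il6 and Il10 were under the minimum, with at most 35.1 and 7.39 CPM (4.91 and 1.35 without the 161 barcodes).

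Receptors that guide neutrophils were mostly high. Of 9 recruitment receptor genes with enough counts outside the rule, 8 were higher than in other cells, beside 14.6% of all genes. Against classical monocytes 7 were higher, a comparison in which 13.0% of all genes were. Ccr1 had 949, 824, 1017 and 1293 CPM (74.2 in other cells), and C5ar1, the receptor of complement C5a, had 655, 648, 712 and 765 CPM (73.6 in other cells). Cxcr4, the receptor that holds neutrophils in the marrow and is known to return on aged cells, had 960, 839, 856 and 1039 CPM against 127, and its highest and lowest library differed by a factor of 1.2. Csf2rb missed the criterion, at 200, 273, 310 and 625 CPM against 179.

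Microbial pattern receptors followed the same direction, with 5 of 6 tested genes higher than in other cells, beside 14.6% of all genes. Cd14, the lipopolysaccharide coreceptor, had 1288, 1392, 1493 and 1494 CPM against 187, and Trem1, an amplifier of inflammatory signals, had 1077, 1124, 1280 and 1044 CPM against 32.7. Clec4d and Clec4e, paired lectin receptors, reached 1218 and 1107 CPM. Tlr2 did not meet the criterion, at 181 to 247 CPM against 113.

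**Figure D3:**
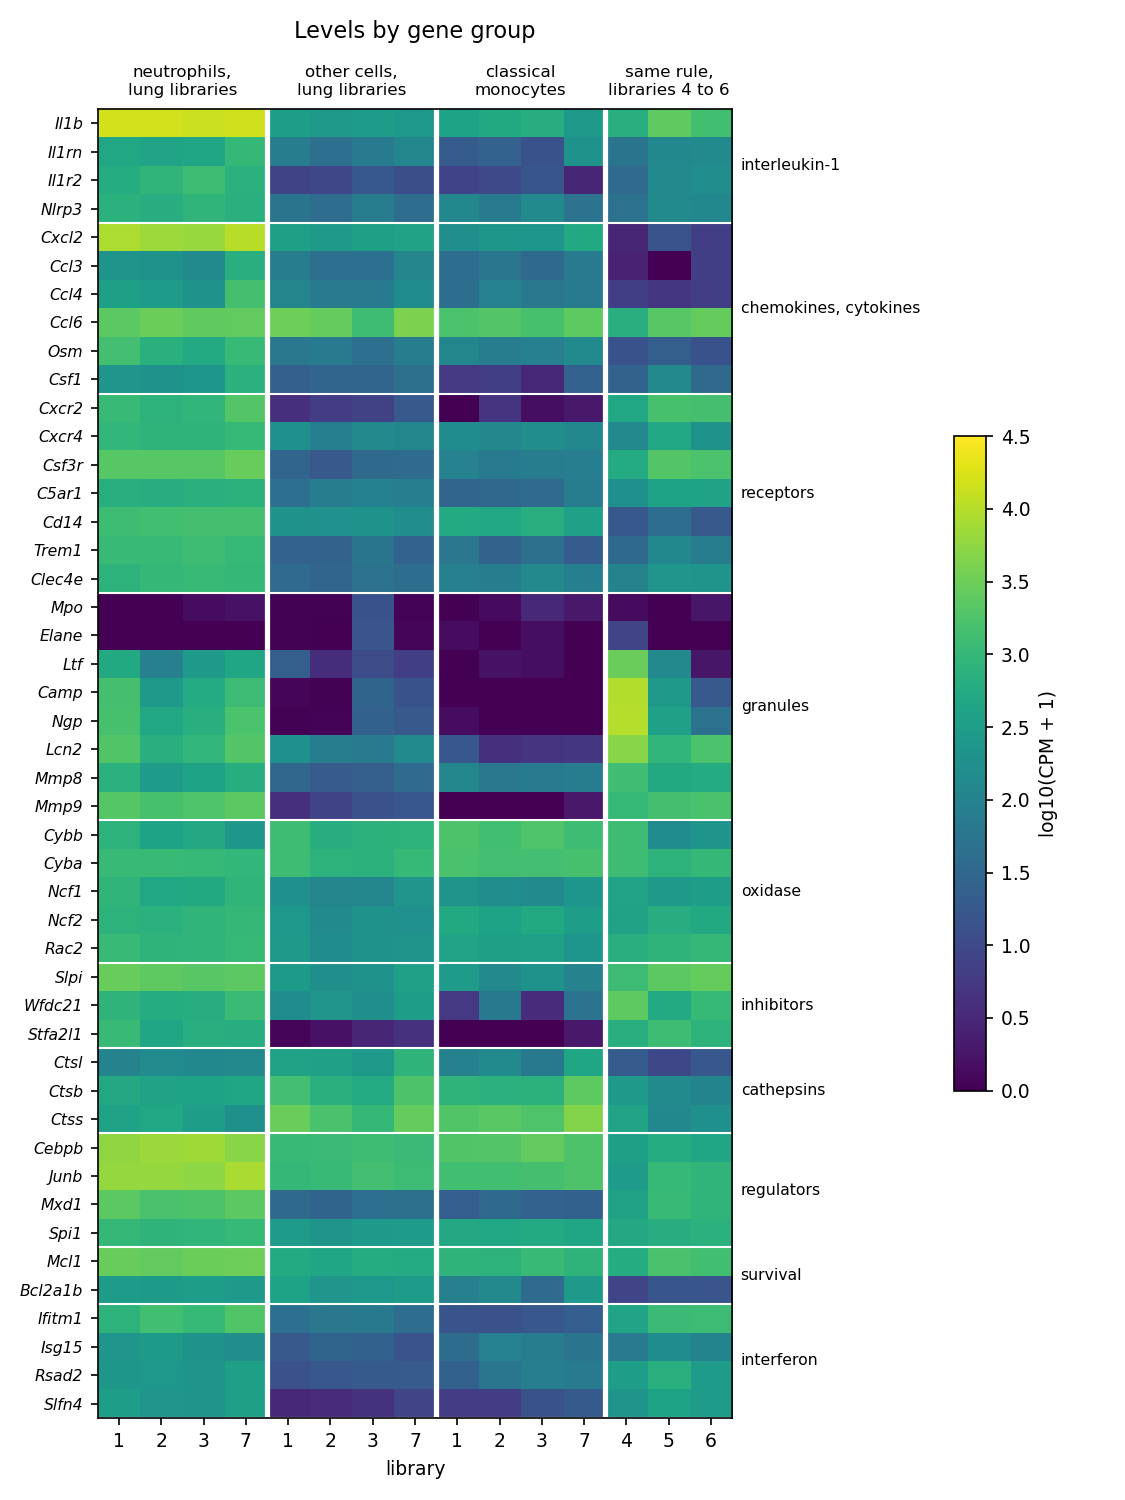
Colour gives log10(CPM + 1) for genes of the groups named at the right. Columns are the neutrophils, the other cells and the classical monocytes of lung libraries 1, 2, 3 and 7, and the barcodes that the same rule selected in libraries 4, 5 and 6. Il1b and Cxcl2 were brightest in lung neutrophils, Mpo and Elane were near 0 in lung neutrophils, and Camp and Ngp were brightest in library 4.

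Granule genes divided by granule type. The genes of azurophil granules, which are transcribed in marrow promyelocytes, were absent or nearly so. Elane and Ctsg had 0 UMIs in the 1522 neutrophils, and Mpo, Prtn3 and Ms4a3 had at most 4.03 CPM in any lung library. Of 8 specific granule genes, 7 were higher than in other cells, beside 14.6% of all genes. The other 1, Chil3, was lower (365, 995, 798 and 1870 CPM against a mean of 12915), beside 25.2% of all genes. Without the 161 barcodes Chil3 was 295, 412, 216 and 1476 CPM. Of the gelatinase granule genes, Mmp8 and Mmp9 belonged to the rule, and Adam8 was the only other one with enough counts, at 392, 415, 414 and 592 CPM against 44.2.

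The levels of Camp, Ngp, Ltf and Olfm4 came from very few cells, whereas Lcn2 of the same list was detected at 500 UMIs in 26.3% of neutrophils (56.2% unthinned), 0.152% of B cells and 0.905% of endothelial cells. Camp, the cathelicidin, had 1483, 265, 578 and 1198 CPM in libraries 1, 2, 3 and 7, but a UMI of Camp was present in only 24 of 1522 neutrophils (1.58%). Ngp had 1532, 476, 689 and 1704 CPM from 55 neutrophils, and Ltf, encoding lactoferrin, had 531, 89.9, 269 and 464 CPM from 31. The variance over mean of the thinned counts, which is near 1 for counting noise, was 19.2 for Ngp, 16.6 for Camp and 7.76 for Ltf. Over the 1426 genes with enough counts, its median was 1.05 and 50 (3.51%) reached 2. Camp thus differed by a factor of 5.6 between libraries 1 and 2, and 5 cells carried it in library 1. Its level depended on how cells were weighted, at 834, 86.6, 268 and 256 as the mean of each cell's CPM, and at 1934, 399, 905 and 1150 CPM without the 161 barcodes. Without them Ngp was 1998, 616, 1079 and 1495 CPM and Ltf 692, 133, 421 and 390 CPM.

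The few cells richest in granule transcripts had less Il1b. In cells thinned to 500 UMIs, 7, 9, 25 and 37 neutrophils of libraries 1, 2, 3 and 7 (7.61%, 2.02%, 4.35% and 9.11%) held 3 or more UMIs of Ltf, Camp, Ngp and Lcn2 together. Their mean Il1b content was 6, 14.2, 10.6 and 12.6 per 1000 UMIs, against 20.03, 19.6, 17.8 and 17.2 in cells with no such UMI, and was lower in each of the 4 libraries. Cells with 1 or 2 such UMIs showed no such gap, at 20.1, 20, 17.4 and 17.5 per 1000. S100a8 and S100a9, on which the cells were selected, stood at 236, 190, 219 and 156 per 1000 UMIs against 84.5, 88.3, 81.7 and 69.9, which is a description only. Cxcl2 was lower in these cells in libraries 2, 3 and 7 and was not in library 1, where it was 10.3 against 8.75 per 1000 with 7 cells. All of these are shares of 1 total, so a gain in some genes lowers the share of the rest.

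**Figure D4:**
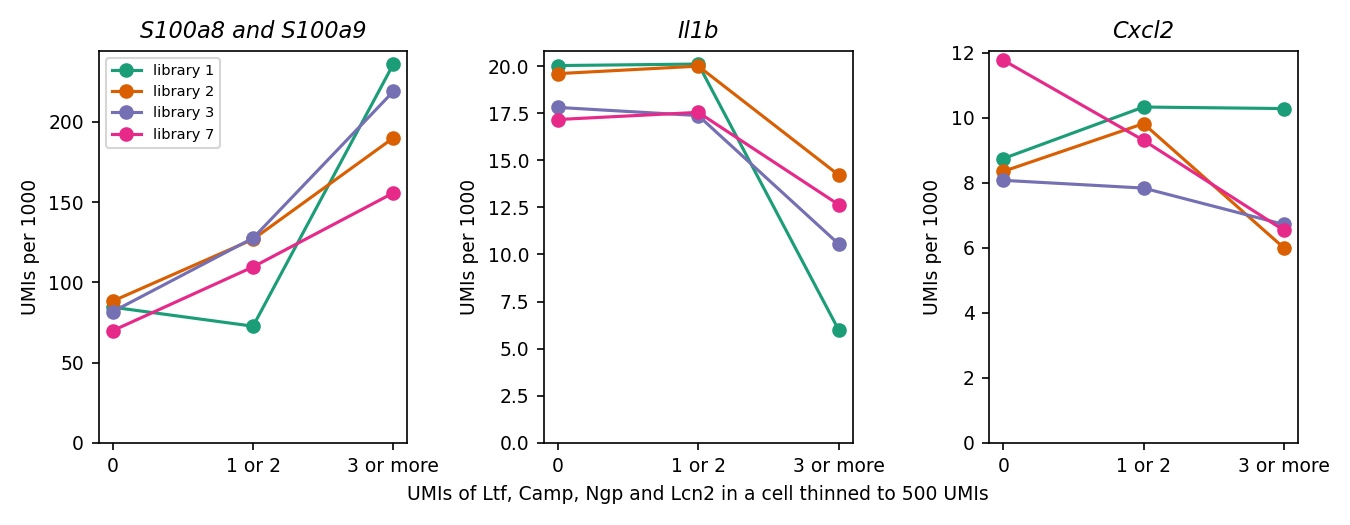
Mean UMIs per 1000 of S100a8 and S100a9, of Il1b and of Cxcl2 in neutrophils thinned to 500 UMIs, by the number of UMIs of Ltf, Camp, Ngp and Lcn2 in the cell, with a line for each lung library. In the class with 3 or more UMIs, which held 7, 9, 25 and 37 cells in libraries 1, 2, 3 and 7, Il1b was lower than in cells with none in each library. S100a8 and S100a9 were genes of the selection rule.

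Enzymes and inhibitors that bear on tissue proteolysis had distinct levels. Mmp9, a gelatinase, was a gene of the rule. Mmp12, the macrophage elastase, had 18.8, 85.7, 0 and 16.8 CPM in neutrophils, against a mean of 405 in other cells, and 14.7, 5.39, 0 and 13.6 CPM without the 161 barcodes. Ctsl, encoding cathepsin L, had 102, 146, 124 and 131 CPM in libraries 1, 2, 3 and 7, and was lower than in the other cells of each library, whose mean was 466. Without the 161 barcodes Ctsl was 103, 117, 95.4 and 75.3 CPM. At 500 UMIs, Ctsl was detected in 4.61% of neutrophils (20.2% unthinned), 5.59% of monocytes, 14.3% of endothelial cells and 0.455% of B cells. Ctss was lower too, at 395, 501, 331 and 179 CPM against 2062. Without the 161 barcodes Ctss was 108, 146, 54.1 and 129 CPM, so most of its level in libraries 1, 2 and 3 came from them. Ctsb and Ctsd, at 390 to 520 and 837 to 1653 CPM against means of 1121 and 2558, did not meet the criterion. Ctsb was 344, 173, 142 and 384 CPM without the 161.

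Of 7 tested protease inhibitor genes, 4 were higher than in other cells, beside 14.6% of all genes. Slpi, the secreted inhibitor of leukocyte elastase, had 2895, 2434, 2139 and 2281 CPM against 256, and Wfdc21, a related small protein, had 858, 605, 625 and 1175 CPM against 220. Among genes of the NADPH oxidase, which makes the respiratory burst, 4 of 6 were higher than in other cells. Against classical monocytes 2 of 6 were higher and 1 was lower, beside 13.0% and 17.7% of all genes. Ncf1 had 881, 504, 536 and 878 CPM against 157, whereas Cybb, the catalytic subunit, had 806, 401, 514 and 242 CPM against 873. Without the 161 barcodes with markers of other classes, Cybb was 388, 129, 173 and 166 CPM.

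Of 11 tested transcription factor genes, 6 were higher than in other cells and 1 was lower, beside 14.6% and 25.2% of all genes. Cebpb, a regulator of emergency granulopoiesis, had 5613, 6631, 7337 and 5013 CPM against 1190, and Junb had 6035, 6141, 5519 and 8467 CPM against 1185. Cebpe and Gfi1, factors of the marrow precursors, had at most 45.2 and 2.69 CPM. Mcl1, on which neutrophil survival depends, had 2869, 2670, 3070 and 3203 CPM against 555. Of 9 survival and apoptosis genes 2 were higher than in other cells, beside 14.6% of all genes. Their median stood at -0.24 on the log2 scale, beside -0.48 for all genes. Of 13 interferon-induced genes, 8 were higher than in other cells, including Ifitm1 at 825, 1396, 1035 and 1923 CPM against 51.8. Against classical monocytes 5 of 14 were higher and 1 was lower, beside 13.0% and 17.7% of all genes. The 8 cell-division genes summed to 26.4, 37.5, 42.3 and 61.8 CPM in neutrophils and to 576, 372, 398 and 242 CPM in other cells.

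Classical monocytes offered a closer comparison. They were taken as 876 barcodes with at least 3 of Ly6c2, Ccr2, F13a1, Fn1, Vcan and Ms4a4c and fewer than 3 markers of any other class, neutrophils included, so their low neutrophil markers are partly a result of that choice. Against them, 461 of 3547 genes (13.0%) were at least 2-fold higher in neutrophils in each library and 628 (17.7%) were lower, at a median of -0.27 on the log2 scale. Without the 161 barcodes the lower genes numbered 1000, and 627 of the 628 were among them.

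Outside the rule and the granule genes, the highest ratios to monocytes were in Acod1, G0s2, Stfa2l1, H2-Q10, Asprv1, Gm5483 and Hdc. G0s2, an inhibitor of the triglyceride lipase ATGL, had 8784, 6608, 5368 and 5377 CPM in libraries 1, 2, 3 and 7, against a mean of 10.9 in monocytes and 104 in other cells. H2-Q10, a class Ib histocompatibility gene, had 527, 476, 521 and 559 CPM against 0.540. H2-Q10 lies in a family of near-identical genes, so its reads may be uncertain. Lowest against monocytes were 5 genes of the monocyte choice (Fn1, Ms4a4c, F13a1, Vcan and Ccr2) with Ube2c, Batf3, Cd209a, Crip1 and Clec10a. Cd209a was on the dendritic cell marker list, and the choice allowed fewer than 3 markers of that list, so some of these barcodes may not be monocytes.

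Between the lung libraries, 72 of 2554 genes (2.82%) differed at least 4-fold with counting intervals apart. Most of them were not neutrophil genes. Of the 72, 35 were lower in neutrophils than in other cells in each library, 31 were neither higher nor lower throughout, and 6 were higher. Among the 20 largest were surfactant and alveolar genes (Sftpc, Sftpa1, Slc34a2, Sftpb, Cxcl15, Sftpd), complement C1q genes of macrophages and genes of matrix-producing cells (Mgp, Bgn, Eln, Sparc).

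The 161 barcodes with other markers moved with this result. Without them 25 of 2347 genes differed at least 4-fold, and 17 of these were among the 72. C1qa went from 120, 171, 1.30 and 59.1 CPM to 0, 9.89, 0 and 1.51. Sftpc went from 41.4, 241, 5629 and 1392 CPM to 49.1, 300.2, 269 and 42.9, and Retnla from 1769 CPM in library 7 to 17.3. Over the whole marker lists, fibroblast genes summed to 0, 245, 153 and 4.70 CPM in all selected barcodes with Col3a1 the most abundant, airway genes to 764, 1206, 1432 and 201 CPM, of which Scgb1a1 made up most, and C1q macrophage genes to 2078, 1938, 940 and 468 CPM with Apoe the most abundant.

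The 6 genes that were higher in neutrophils and differed at least 4-fold were Olfm4, Ccl4, Ltf, Camp, Stfa1 and Ccl3, and all 6 still did so without the 161 barcodes. Olfm4, a granule protein of a subset of neutrophils, had 407 CPM in library 1 against 2.38, 9.94 and 14.8 in libraries 2, 3 and 7, but its 108 UMIs in library 1 came from 3.26% of 92 cells. Ccl3 and Ccl4, neighbouring chemokine genes on chromosome 11 (Ccl3 at 83647844 to 83649355 and Ccl4 at 83662584 to 83664683 in GRCm38), were highest in library 7. Ccl4 had 365, 289, 202 and 1499 CPM (1608 in library 7 without the 161) and Ccl3 had 215, 193, 134 and 676 CPM (216, 120, 179 and 704 without the 161). A UMI of Ccl4 was present in 8.70%, 10.8%, 11.6% and 18.4% of the neutrophils. The 10% of neutrophils with the most Ccl4 held 98.6% of its UMIs, which follows largely from its detection in 13.0% of all neutrophils.

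Library 7 was also highest in Csf1, the macrophage growth factor, and Jun, which were under the 4-fold limit. Csf1 had 222, 193, 226 and 733 CPM. Jun had 166, 315, 245 and 655 CPM, and 157, 186, 136 and 628 without the 161 barcodes, where it passed the 4-fold limit. Gm42418, a gene model that overlaps ribosomal RNA and was 1 of the 72 genes, was also highest in library 7, with 13679 CPM in neutrophils against 2752, 2531 and 3043 in libraries 1, 2 and 3. The other cells of library 7 had 15397 CPM of it, against 3817 to 5026 in the other cells of the other 3. The part of this ribosomal signal in the values of library 7 was not tested. Jun, Gm42418 and the split of the 72 genes were chosen after their values were seen.

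Promoter sequences of 4 genes that mark the selected cells or set lung neutrophils apart are shown for reference. Each is the 250 bases before the annotated start, from RefSeq on GRCm38.p6, 5′ to 3′ on the strand of the gene. Capitals mark matches, on either strand, to TTNNGNAA (a C/EBP-type motif), to an NF-κB-type motif or to TATAAA (the TATA box), where N is any base. Of 32841 promoter windows, 36.9%, 1.41% and 12.4% hold these motifs. The S100a8 sequence lies at chr3:90668821-90669070 (+), Il1b at chr2:129371140-129371389 (-), Cxcl2 at chr5:90903649-90903898 (+) and Ptgs2 at chr1:150099781-150100030 (+).
S100a8: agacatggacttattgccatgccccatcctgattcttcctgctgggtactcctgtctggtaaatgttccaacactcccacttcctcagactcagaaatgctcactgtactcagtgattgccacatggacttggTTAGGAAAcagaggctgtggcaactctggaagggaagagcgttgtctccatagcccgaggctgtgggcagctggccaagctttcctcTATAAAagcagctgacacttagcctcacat
Il1b: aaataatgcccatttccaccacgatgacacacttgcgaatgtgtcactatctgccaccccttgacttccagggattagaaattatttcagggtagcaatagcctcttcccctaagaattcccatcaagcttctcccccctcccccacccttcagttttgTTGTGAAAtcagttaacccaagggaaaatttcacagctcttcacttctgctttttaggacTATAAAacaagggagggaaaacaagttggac
Cxcl2: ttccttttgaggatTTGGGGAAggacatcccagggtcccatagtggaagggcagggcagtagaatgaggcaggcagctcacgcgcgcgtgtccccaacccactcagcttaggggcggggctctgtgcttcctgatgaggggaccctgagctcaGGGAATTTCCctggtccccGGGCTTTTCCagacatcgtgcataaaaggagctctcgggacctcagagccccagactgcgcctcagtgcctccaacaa
Ptgs2: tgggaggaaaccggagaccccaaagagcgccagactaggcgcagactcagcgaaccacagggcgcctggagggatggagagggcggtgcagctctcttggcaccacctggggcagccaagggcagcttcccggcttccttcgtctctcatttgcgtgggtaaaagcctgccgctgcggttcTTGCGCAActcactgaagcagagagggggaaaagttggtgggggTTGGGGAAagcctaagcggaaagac
Cxcl2 had a pair of NF-κB-type matches, which begin 97 and 78 bases before the start, and the other 3 had none. Each of the 4 had at least 1 C/EBP-type match, and S100a8 and Il1b also had a TATA box, 30 and 31 bases before the start. Over the 15 promoters looked up, from which these 4 were picked, 10 had a C/EBP-type match, 1 an NF-κB-type match and 2 a TATA box. A match of letters does not show that a factor binds there.

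The same rule selected 297, 193 and 209 barcodes in libraries 4, 5 and 6, which gave a contrast for the lung neutrophils. These libraries differed from the lung libraries in other measured ways. Their barcode numbers are round (3000, 5000 and 5000), and their smallest barcodes held 5735, 3439 and 3946 UMIs, against 304 to 501 in the lung libraries, so neutrophils as small as the median lung neutrophil could not appear. Hemoglobin genes held 23.1%, 27.5% and 17.4% of the UMIs of their selected barcodes, against at most 0.00226% in lung neutrophils. Of 872 barcodes that passed the rule up to its last step there, 173 were removed for Cd79a or Cd3e. Tissue, handling and library therefore cannot be told apart in this contrast, and the values below describe libraries.

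Of 2675 genes, 448 (16.7%) were higher in each of the 4 lung libraries than in each of the other 3 and at least 2-fold higher in the mean, and 57 (2.13%) were lower. The median gene stood at 0.43 on the log2 scale. With hemoglobin genes left out of the totals, the median was 0.02, and 280 and 96 genes were called, of which 280 and 53 were also called with all genes. Leaving hemoglobin out thus moved the whole distribution, and counts are given below for both totals.

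Cxcl2 had the largest ratio among the genes that were higher in the lung libraries, with counts under 3 raised to 3. The rank depends on that floor, since airway markers, mostly Scgb1a1, summed to 0, 0.837 and 0 CPM in libraries 4, 5 and 6. Their ratio is therefore only a lower bound. Cxcl2 had 6493 to 10273 CPM in the lung libraries and 2.04, 13.4 and 5.85 CPM in libraries 4, 5 and 6, from 6, 16 and 7 UMIs. Ptgs2, encoding cyclooxygenase 2, had 1911 to 2687 CPM against 6.80, 49.4 and 16.7. G0s2 had 5368 to 8784 CPM against 115, 122 and 71.9, and Il1b had 13893 to 15485 CPM against 674, 2536 and 1377. The lung libraries and the others did not overlap in any of these genes.

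Of 10 secreted cytokine genes 8 were higher in the lung libraries, of 5 genes of the interleukin-1 system outside the rule 4, of 6 pattern receptor genes 5, and of 11 transcription factor genes 7. With hemoglobin genes out of the totals these counts were 8, 4, 4 and 4, beside 280 of 2847 genes in all. Genes that reached 50 CPM in the lung libraries alone had to differ, so these counts are a description. Cd14 had 1288 to 1494 CPM against 16.3, 39.3 and 16.7, and Osm had 572 to 1423 CPM against 12.6, 21.8 and 12.5. The immediate-early genes Egr1 and Fosb were among the 15 highest, with 861 to 2154 CPM against 4.08, 20.1 and 5.85 for Egr1. Both genes are known to respond to the handling of cells, and the part of tissue dissociation was not tested. Among interferon-induced genes 2 of 14 were higher, and among oxidase genes 1 of 6, near the 16.7% of all genes, and both counts were 0 with hemoglobin genes out of the totals.

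Markers of several other lung cell classes moved with this contrast. Sftpc, Scgb1a1, Mgp, Retnla and Sftpa1 were among the same 15 genes, and over the whole lists, endothelial markers summed to 37.6 to 436 CPM in lung neutrophils against 9.18, 26.8 and 29.3 in libraries 4, 5 and 6, alveolar type 2 markers to 7.53 to 579 CPM against 2.04, 0.837 and 3.35, and airway markers to 201 to 1432 CPM against 0, 0.837 and 0. C1q macrophage markers summed to 468 to 2078 CPM against 364, 150 and 316. Classical monocyte markers went the other way in library 4, at 293 to 554 CPM against 1709, 384 and 557. In library 4, 59 of the 297 selected barcodes held 3 or more of them. Their part in the other differences was not tested. Barcodes with 3 or more markers of another class, red cell markers aside, were then left out in all 7 libraries. Without them 505 genes were higher in the lung libraries, and 383 of the 448 were among them.

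The gap in Cxcl2 and Il1b was also present among larger neutrophils. Among neutrophils with at least 4000 UMIs, which were 13, 78, 117 and 76 barcodes in libraries 1, 2, 3 and 7, Cxcl2 had 6358, 3962, 3616 and 9947 CPM and Il1b 8206, 7376, 7988 and 9468 CPM, while libraries 4, 5 and 6 stayed at or under 13.5 and 2530 CPM. In these larger lung cells 7, 48, 65 and 13 had 3 or more markers of another class. In libraries 4, 5 and 6, 69, 6 and 13 of 297, 191 and 209 such barcodes did, red cell markers aside. At this size 632 genes were higher in the lung libraries, and 329 of the 448 were among them.

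**Figure D5:**
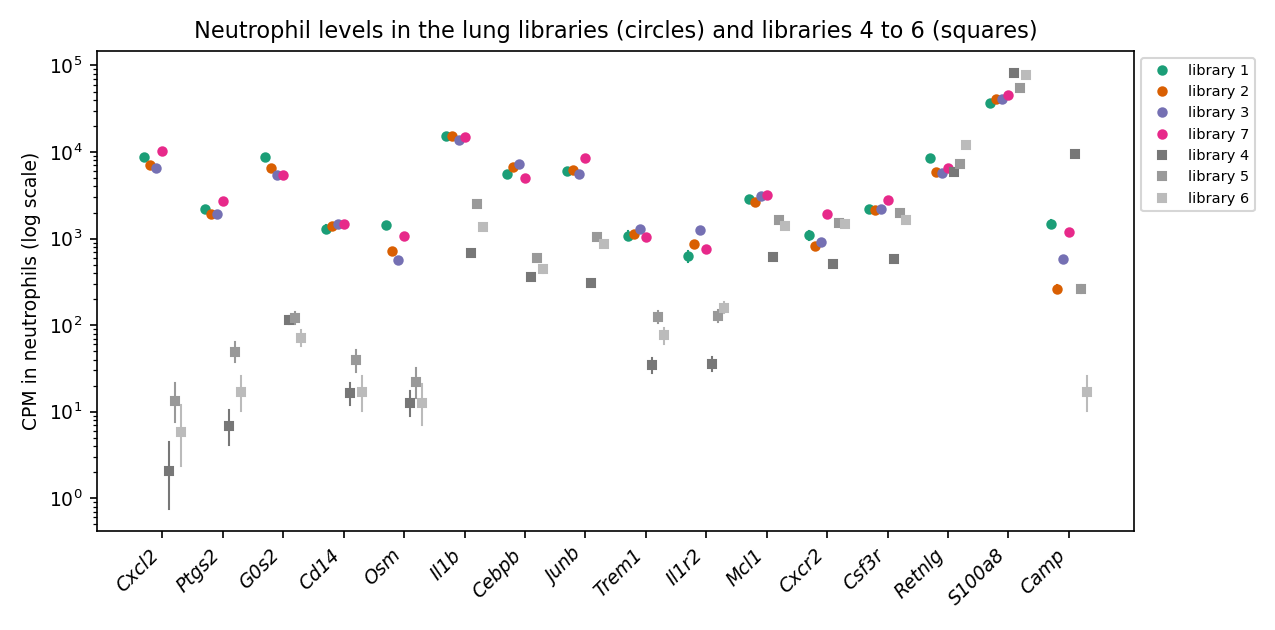
CPM on a log scale in the neutrophils of each library, as circles for lung libraries 1, 2, 3 and 7 and squares for libraries 4, 5 and 6, with 95% Poisson counting intervals. For the genes from Cxcl2 to Mcl1 all circles lie above all squares, likewise for Csf3r (where they overlap among cells with at least 4000 UMIs, at 1134 to 1835 CPM against 576, 1951 and 1660), for S100a8 they lie below, and for Cxcr2, Retnlg and Camp they overlap.

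The 15 genes with the largest ratios in the lower direction included, beside the 4 hemoglobin genes, Alas2, the first enzyme of heme synthesis in red cells, with 0 CPM in each lung library and 731, 854 and 462 CPM in libraries 4, 5 and 6, and the platelet chemokine gene Ppbp, with at most 18.5 CPM against 94.2, 444 and 377. S100a8, a gene of the rule, stood at 37314 to 46191 CPM against 82445, 55014 and 77331, and among neutrophils with at least 4000 UMIs library 7 (55259 CPM) overlapped with library 5 (54997 CPM). Camp and Ngp were split within that set, since library 4 had 9523 and 9860 CPM and library 6 had 16.7 and 47.7 CPM. Library 4 thus had more Camp and Ngp than any lung library. Among neutrophils with at least 4000 UMIs the gap was smaller, since library 7 then had 3313 CPM of Camp and 4693 CPM of Ngp.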

How the data were processed

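The authors' matrix holds whole-number UMI counts of genes by barcodes, from 3′ tag libraries whose reads were down-sampled where required. Its header gives software version 3.1.0, and the submitters' processing notes list Cell Ranger, STAR and mm10. The labels name a v3 kit and the paper's methods another version. Gene positions came from GENCODE M21 on GRCm38, where 30934 of 31053 identifiers were found. The 7 libraries share 1 matrix, and their depth was 50552002, 79439569, 47364075, 29701569, 32617703, 30953196 and 34606626 UMIs in libraries 1 to 7.

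UMIs of the selected cells were summed by library and scaled to CPM, with counts under 3 raised to 3 in ratios. Because tags come from the 3′ end, CPM was not divided by gene length, and levels are compared for 1 gene at a time. A gene was called higher or lower at 2-fold in each library, or between libraries at 4-fold with exact 95% Poisson intervals apart, among genes with at least 50 CPM. With no groups and no replicates, no test was run. Intervals cover counting error only. Variance over mean was taken in cells thinned to 500 UMIs. Scrublet (scanpy 1.11.5) was run per library with an expected rate of 5%, and its calls were removed only in an alternative. In libraries 4, 5 and 6 it marked under 0.5% of barcodes and was taken as not having worked. In libraries 1, 2, 3 and 7 it marked 2.21%, 5.63%, 3.28% and 0.757%, so its calls in library 7 may also be too few. Named genes were the members of the gene lists and the genes with the largest ratios in each comparison (25 and 10 against other cells, 15 and 10 against monocytes, 20 between libraries, 15 and 15 against libraries 4 to 6, 20 by variance). The members, lists and rules were chosen with earlier results of these data known. The scripts were tested on simulated data. Promoter sequences came from RefSeq for 15 of 18 genes looked up.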

Additional observations from a re-analysis of the deposited data

How the results depend on the processing

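No paired analysis was possible because no library number is tied to a sample, so replicate numbers of the labels could not be used. Leaving out 1 library at a time gave 946 to 1430 neutrophils, and the counts of genes then stayed within 1.5 times the value with all libraries. The minimum level set most counts. At 10 CPM the genes lower than in other cells numbered 1809, those higher and lower than in monocytes 727 and 963, those 4-fold apart between lung libraries 371, and those higher and lower in the lung libraries than in libraries 4 to 6 1045 and 86. With no minimum the same counts were 1809, 822, 963, 611, 1635 and 86, and 8230 genes were higher than in other cells, because raising small counts to 3 sets a higher floor in the smaller total of the neutrophils. With the mean of each cell's CPM, 35 genes were 4-fold apart between lung libraries. Thinning to 1000 UMIs gave 113 genes with a variance over mean of at least 2. The following 3 alternatives were chosen after seeing the data. Without the barcodes that held 3 or more markers of another class, 1000 genes were lower than in monocytes and 25 were 4-fold apart between lung libraries, and with hemoglobin genes out of the totals 280 genes were higher and 96 lower in the lung libraries than in libraries 4 to 6. Keeping only neutrophils with at least 4000 UMIs gave 632 and 49. Mitochondrial limits, S100 limits, the number of further genes, Scrublet calls, a minimum of 500 UMIs, the study's limits on UMIs and genes, and adding 1 count moved none of these counts by more than 1.5 times. Library 1, with 92 neutrophils, limits the precision of every value there. Of 504 CPM values of 14 genes under these settings, 232 lay outside the counting interval of the reported value.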
